A study of Rattus norvegicus with 21 samples.

Results

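The mitochondrial carriers of the SLC25 family were examined in rat liver after repeated dosing with one of 2 compounds. Piperonyl butoxide (PBO) is added to insecticides to strengthen them, and dammar resin (DAM) is a tree resin used in food. A carrier gene was counted where a probe set on the rat array had 1 gene symbol beginning with Slc25a, and each gene was represented by the probe set with the highest mean signal. This gave 40 genes, covered by 58 probe sets, of 14217 genes with 1 symbol and 31099 probe sets on the array. A further 2 probe sets, annotated to Slc25a51 together with another gene, were left out.

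Livers of 21 male rats were each measured on 1 array, 3 animals in each of 7 groups. Sprague-Dawley rats received PBO by mouth for 7 days at 500, 1000 or 1500 mg/kg, or 0.5% methyl cellulose as the 0 mg/kg control, and their livers were kept in RNAlater. Fischer344 rats ate a diet with 2% or 5% DAM for 28 days, equivalent to 800 and 2000 mg/kg, or the basal diet as control, and their livers were frozen in liquid nitrogen. The labels call the 3 samples of a group biological replicates and give no age. Strain, route, length of dosing, vehicle and storage all differed between the studies, so a difference between their controls cannot be told apart from these, and each dose was compared with the control of its own study.

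SLC25 carriers are proteins of the mitochondrial inner membrane, with a few in other membranes, that exchange nucleotides, phosphate, metabolic acids, amino acids and cofactors between the cytosol and the matrix. In hepatocytes they join pathways split between both compartments, such as the urea cycle, the malate-aspartate shuttle, fatty acid oxidation, fatty acid synthesis and haem synthesis. They are encoded in the nucleus and imported after translation through the TOM and TIM complexes.

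Signals are MAS5 values, the scanner intensities summarised per probe set, with a trimmed mean of 500.2 to 500.3 on each array. The median signal was 94.3 to 114.1 on the PBO arrays and 76.0 to 86.2 on the DAM arrays. The ratio of 3' to 5' probe sets of actin, a sign of RNA length, was 2.38 to 3.16 in the PBO study and 5.56 to 9.81 in the DAM study. Hepatocyte markers were high in every liver, with albumin (Alb) between 27024 and 69211, and the 6 striated muscle markers summed to at most 279. The array of PBO 1500 animal 3 stood furthest from its group, with a root mean square deviation of 0.497 in log2 against 0.28 to 0.37 for the other PBO arrays. Changes of carriers that passed at PBO 1500 are therefore given with and without it.

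The number of carrier genes that changed rose from the lowest to the highest dose of both compounds, in both directions. Changes are differences in log2(signal + 16), fitted with limma in each study, and a gene is said to have risen or fallen where the Benjamini-Hochberg adjusted p over all 18625 probe sets tested was under 0.05. Of the 36 genes bright enough to be tested in the PBO study, none passed at 500 mg/kg, against 0.478% of all probe sets. At an unadjusted p under 0.05 there were 2 higher and 2 lower. At 1000 mg/kg 1 gene fell (2.78%, against 3.12% of all probe sets and 1.23% that fell). At 1500 mg/kg 5 rose and 5 fell, or 27.8% of the tested carriers, against 17.3% of all probe sets, of which 8.08% rose and 9.26% fell. In the DAM study 34 genes were tested. At 800 mg/kg 2 rose and 1 fell, or 8.82%, against 3.79% of all, with 2.16% higher and 1.62% lower. At 2000 mg/kg 6 rose and 4 fell, or 29.4%, against 12.3% of all, with 6.22% higher and 6.11% lower. Each carrier is the brightest probe set of its gene, while the background holds all probe sets tested, dimmer ones included. With a 60th percentile filter 9 of 31 carriers passed at PBO 1500, against 26.4% of all probe sets. At DAM 2000 it was 10 of 32, against 19.4%. The signals of treated and control animals did not overlap for 8 carriers at PBO 500 (22.2%, against 20.1% of all probe sets), 9 at PBO 1000 (25%, against 27.5%) and 13 at PBO 1500 (36.1%, against 33.3%), shares near the background. For DAM there were 9 at 800 mg/kg (26.5%, against 20.9%) and 14 at 2000 mg/kg (41.2%, against 30.8%). The 3 PBO comparisons share their control animals, as do both DAM comparisons.

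Over the tested carriers the median change was -0.08 at PBO 1500, equal to the -0.08 of all probe sets, and 0.10 at DAM 2000 against -0.04. With arrays brought to the same median, the changes of all probe sets moved upward by a median of 0.121 at PBO 1500 and 0.106 at DAM 2000. The split of carriers then became 5 higher and 3 lower at PBO 1500, and 7 higher and 2 lower at DAM 2000. With the next probe set of genes that have several, it became 4 higher and 3 lower at PBO 1500, and 3 higher and 4 lower at DAM 2000. The 10 calls at PBO 1500 became 5 without vehicle animal 3, and 10 without PBO 1500 animal 3, of which 8 were among the original calls. The 3 calls at DAM 800 became 1 without basal diet animal 1 or without any 1 of the 3 DAM 800 animals. At PBO 1000 the count became 5 without PBO 1500 animal 3, which enters the shared estimate of spread, and 2 without PBO 1000 animal 1, and at PBO 500 it became 2 without PBO 1500 animal 3 (Slc25a13 and Slc25a25, both lower).

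**Figure D1:**
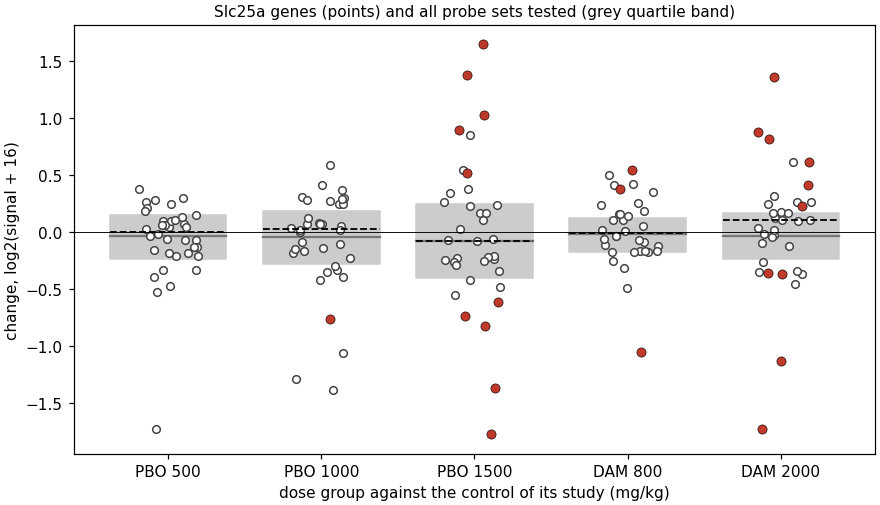
Change in log2(signal + 16) of each tested Slc25a gene (points, red where the adjusted p was under 0.05) in the 5 dose comparisons, with the median of the carriers (dashed line), the median of all probe sets tested (grey line) and their middle 50% (grey band). No carrier is red at PBO 500, 1 at PBO 1000, 10 at PBO 1500, 3 at DAM 800 and 10 at DAM 2000, above and below 0.

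Promoter sequences are shown for 4 genes on which the results turn: Slc25a13, Slc25a17 and Slc25a39, which changed in the same direction at the highest dose of both compounds, and Slc25a25, which had the smallest adjusted p of any carrier. Each runs 5' to 3' on the gene's strand over the 250 bases before the gene's start in RefSeq (GRCr8), with matches to the searched motifs in capitals. All 4 genes lie on the minus strand, at chr4:35328361-35328610, chr7:114767164-114767413, chr10:87866974-87867223 and chr3:36116582-36116831 in the order below.
Slc25a13: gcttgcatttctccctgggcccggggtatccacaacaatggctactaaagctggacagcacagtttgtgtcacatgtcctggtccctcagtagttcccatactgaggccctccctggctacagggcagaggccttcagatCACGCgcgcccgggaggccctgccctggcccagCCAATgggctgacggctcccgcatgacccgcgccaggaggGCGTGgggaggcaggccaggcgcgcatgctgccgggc
Slc25a17: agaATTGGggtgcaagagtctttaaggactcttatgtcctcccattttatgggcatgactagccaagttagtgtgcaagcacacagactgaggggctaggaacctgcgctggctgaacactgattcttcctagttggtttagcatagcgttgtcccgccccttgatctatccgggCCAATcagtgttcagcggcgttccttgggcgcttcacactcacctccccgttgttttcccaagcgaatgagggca
Slc25a39: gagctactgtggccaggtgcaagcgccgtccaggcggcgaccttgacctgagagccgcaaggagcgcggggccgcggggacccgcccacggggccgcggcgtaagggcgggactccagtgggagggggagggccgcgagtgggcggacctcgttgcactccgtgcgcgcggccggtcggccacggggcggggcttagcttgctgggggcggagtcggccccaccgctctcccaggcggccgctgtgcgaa
Slc25a25: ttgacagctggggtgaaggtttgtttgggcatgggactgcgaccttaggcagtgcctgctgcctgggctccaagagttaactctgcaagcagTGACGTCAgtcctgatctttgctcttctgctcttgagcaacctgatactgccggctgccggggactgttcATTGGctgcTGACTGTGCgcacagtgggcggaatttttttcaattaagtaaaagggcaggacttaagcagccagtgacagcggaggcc
The capitals in Slc25a13 are 2 xenobiotic response element cores (GCGTG) and a CCAAT box, and those in Slc25a17 are 2 CCAAT boxes. Slc25a39 held none of the searched motifs in this window. Slc25a25 held a cAMP response element (TGACGTCA) at -158 to -151 from the start, a CCAAT box at -88 to -84 and an antioxidant response element core (TGACNNNGC) at -79 to -71.

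Promoters were found for 34 of the 40 genes, and both strands were searched. CCAAT was present in 19 of 34, against 34.3% of all 27457 promoters of that length, and GCGTG in 14 of 34, against 27.2%. TGACNNNGC was present in 2 (Slc25a25 and Slc25a48), against 10.2%, and TGACGTCA in 2 (Slc25a25 and Slc25a33), against 1.7%. The E-box CACGTG was present in 2 (Slc25a31 and Slc25a33), against 5.79%. The DR1 element (a direct repeat bound by nuclear receptors) and the NRF1 element were in none of the 34, and in 0.0546% and 0.849% of all promoters. These are matches of letters, not measured binding sites. The 27457 promoters were not matched to the carriers in gene type or base composition, on which such matches also depend.

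Among the carriers of adenine nucleotides and phosphate, Slc25a25, Slc25a23 and Slc25a3 passed in at least 1 comparison. Slc25a25, a calcium-regulated ATP-Mg/phosphate carrier, had signals of 4671, 3914 and 3687 on the basal diet, 1593, 2236 and 2077 at DAM 800, and 1667, 1240.1 and 866 at DAM 2000. All 6 DAM animals lay below all 3 controls. The gene fell by 1.06 (SE 0.20, adjusted p = 0.00979) at 800 mg/kg and by 1.73 (SE 0.20, adjusted p = 0.000103) at 2000 mg/kg, and the call at 2000 mg/kg held in all 16 alternatives run. Alternatives are counted here on the same probe set, and other probe sets are given separately. That at 800 mg/kg ended with eBayes run without an intensity trend (adjusted p = 0.0764). In the PBO study its signals were 1163, 2585 and 616 with vehicle, 389, 374 and 318 at 500 mg/kg, 304, 583 and 549.5 at 1000 mg/kg, and 699, 511 and 3289.8 at 1500 mg/kg. Every animal at 500 and 1000 mg/kg lay below the 3 vehicle animals, which themselves differed widely, while PBO 1500 animal 3 lay above all of them. The changes of -1.73 (SE 0.60), -1.39 (SE 0.60) and -0.21 (SE 0.60) did not pass (adjusted p = 0.327, 0.279 and 0.845). PBO 1500 animal 3 also enters the shared estimate of spread, and without it Slc25a25 fell at 500 and 1000 mg/kg. The change at 1500 mg/kg was then -1.02 (SE 0.43) and did not pass (adjusted p = 0.133). With array weights the gene fell at 500 mg/kg.

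Slc25a23, a second ATP-Mg/phosphate carrier, moved in opposite directions under the 2 compounds. Its signals were 1535, 1501 and 1675 with vehicle and 941, 1100.4 and 199 at PBO 1500, so all 3 treated animals were lower and animal 3 lowest. On the basal diet they were 868, 1059 and 1017, against 1466, 1289.7 and 1198 at DAM 800 and 2005, 1882 and 1558 at DAM 2000, with no overlap at either dose. The gene fell by 1.37 (SE 0.44, adjusted p = 0.0471) at PBO 1500 and rose by 0.87 (SE 0.12, adjusted p = 0.000369) at DAM 2000. The rise of 0.42 at DAM 800 did not pass (adjusted p = 0.0707).

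The PBO call for Slc25a23 was close to the threshold and held in 7 of 16 alternatives. It ended without vehicle animal 1, 2 or 3 (adjusted p = 0.106, 0.0986 and 0.122), while without PBO 1500 animal 3 the change was -0.62 with an adjusted p of 0.0019. At PBO 500 and 1000 the changes were -0.02 and 0.00. A second tested probe set of the gene gave -0.17 at PBO 1500 and 0.11 at DAM 2000, neither of which passed, so the opposite movement rests on the brighter probe set.

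Slc25a3, the phosphate carrier that supplies ATP synthesis, had signals of 10116, 11004 and 10686 on the basal diet and 12445, 12752 and 12029 at DAM 2000, without overlap. It rose by 0.23 (SE 0.06, adjusted p = 0.0281), and the call held in 8 of 16 alternatives. The call ended without basal diet animal 1 or 3 or DAM 2000 animal 1 or 2 (adjusted p = 0.0915, 0.0683, 0.0682 and 0.0999). The other losses came without a filter, without the intensity trend, with a replicate block and with only both groups' arrays. Slc25a5 and Slc25a4, which exchange ADP for ATP, passed in no comparison, and Slc25a5 changed by -0.08 at PBO 1500 and 0.02 at DAM 2000. The ATP-Mg/phosphate carrier Slc25a24 passed in none, with changes from -0.46 to 0.05. Slc25a31, a carrier known from testis, had signals of 2.18 to 48.3 and was not tested in either study, and Slc25a41 was too dim in the DAM study.

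**Figure D2:**
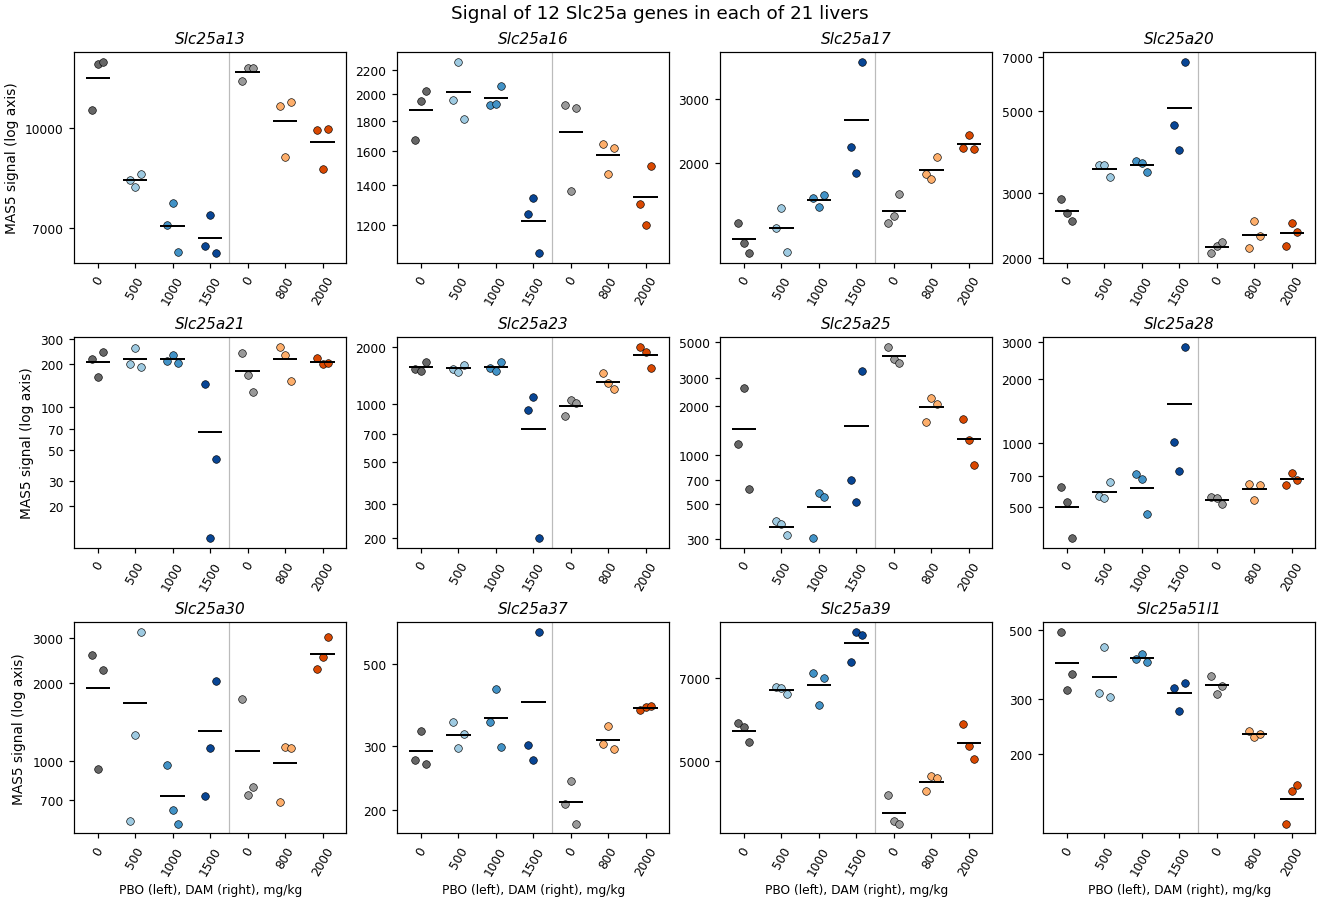
MAS5 signal (log axis) of 12 Slc25a genes in each of the 21 livers, by dose in mg/kg, with PBO groups left of the grey line and DAM groups right of it; points are animals and bars are means of 3. Slc25a13 lies lower in every PBO-treated animal than in the vehicle animals, Slc25a51l1 and Slc25a25 lie lower in every DAM-treated animal than on the basal diet, and PBO 1500 animal 3 (the right point of its group) stands apart for Slc25a23, Slc25a25, Slc25a28 and Slc25a37.

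Of the amino acid carriers, Slc25a13 fell under both compounds. Slc25a13 (citrin) is the aspartate-glutamate carrier of liver and supplies aspartate for urea synthesis and for the malate-aspartate shuttle. Its signals were 10675, 12596 and 12699.8 with vehicle, 8300.1, 8116 and 8488 at 500 mg/kg PBO, 7075, 7659 and 6430.0 at 1000 mg/kg, and 6559, 7319 and 6392 at 1500 mg/kg. All 9 treated animals lay below all 3 vehicle animals. The changes were -0.53 (SE 0.11, adjusted p = 0.054), -0.76 (SE 0.11, adjusted p = 0.0017) and -0.82 (SE 0.11, adjusted p = 0.000239), so the gene fell at 1000 and 1500 mg/kg. It was the 1 carrier that passed at 1000 mg/kg. Without PBO 1500 animal 3, Slc25a14, Slc25a15 and Slc25a25 also fell there and Slc25a20 rose. At 500 mg/kg Slc25a13 fell without that animal, with a 60th percentile filter, quantile normalization or array weights, and with only both groups' arrays. Its calls held in each of the 17 alternatives run at 1000 mg/kg and the 16 at 1500 mg/kg. The second probe set also fell at these doses, by 0.53 (adjusted p = 0.0161) and 0.71 (adjusted p = 0.000602). Without PBO 1500 animal 3 the change at 1500 mg/kg was -0.79 (adjusted p = 0.000207).

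In the DAM study the signals of Slc25a13 were 11863, 12404 and 12423 on the basal diet, 10830.4, 9029 and 10978 at 800 mg/kg, and 9939, 8628 and 9986 at 2000 mg/kg. The groups did not overlap with the control at either dose. The gene fell by 0.36 (SE 0.09, adjusted p = 0.0156) at 2000 mg/kg, and the second probe set by 0.47 (adjusted p = 0.00107), while -0.26 at 800 mg/kg did not pass (adjusted p = 0.145). The first probe set's call ended without basal diet animal 3 (adjusted p = 0.0507), without DAM 2000 animal 2 (adjusted p = 0.07) and with median scaling (adjusted p = 0.164). It also ended without the intensity trend, and held in 12 of 16 alternatives. The PBO effect minus the DAM effect was -0.46 (adjusted p = 0.0622).

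Slc25a39, which transports glutathione into mitochondria, rose at the highest dose of both compounds. Its signals were 5831, 5729 and 5403 with vehicle and 7469.7, 8456 and 8344 at PBO 1500, and 4354, 3917 and 3869 on the basal diet against 5801, 5303 and 5028 at DAM 2000. The treated animals lay above the controls in both studies. The gene rose by 0.51 (SE 0.09, adjusted p = 0.00263) and by 0.41 (SE 0.08, adjusted p = 0.00379), and both calls held in all 16 alternatives each on this probe set. Without PBO 1500 animal 3 the rise with PBO was 0.49 (adjusted p = 0.00256). The effects differed by 0.11 (SE 0.12, adjusted p = 0.677). A second probe set gave 0.31 and -0.49, neither of which passed (adjusted p = 0.69 and 0.25).

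Slc25a15, the ornithine carrier of the urea cycle, had signals of 9098, 10943 and 12624 on the basal diet and 8816, 7929 and 8235 at DAM 2000, without overlap. It fell by 0.37 (SE 0.11, adjusted p = 0.0368). The call ended with median scaling (adjusted p = 0.171) and without basal diet animal 2 or 3 or DAM 2000 animal 1, 2 or 3 (adjusted p = 0.0866, 0.13, 0.0527, 0.12 and 0.0842). The other losses came without a filter, without the intensity trend, with a replicate block and with only both groups' arrays. The call held in 6 of 16 alternatives. Of the 5 tested probe sets of the gene, all had changes below 0 at DAM 2000, from -0.61 to -0.25, and 2 fell. At PBO 1500 its signals were 6533, 6109 and 10332 against 8458, 8938 and 8946 with vehicle, and the change of -0.24 did not pass (adjusted p = 0.331). PBO 1500 animal 3 was the high one, and without it the gene fell by 0.47 (adjusted p = 0.00129).

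The glutamate carrier Slc25a22 showed the same arrangement at PBO 1500, with signals of 1518, 1127 and 2679.8 against 1997, 1958 and 1910.3 with vehicle. Its change was -0.23 (adjusted p = 0.564), and without PBO 1500 animal 3 it fell by 0.57 (adjusted p = 0.0254). The aspartate-glutamate carrier Slc25a12, the basic amino acid carrier Slc25a29, the glycine carrier Slc25a38 and the branched-chain amino acid carrier Slc25a44 passed in none of the 5 comparisons. Slc25a18, a second glutamate carrier, had a median signal of 8.63 and was not tested.

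Among the carriers of acylcarnitine, cofactors and nucleotides, Slc25a20 and Slc25a17 rose and Slc25a16 fell at PBO 1500. Slc25a20 exchanges acylcarnitine for carnitine and so brings long-chain fatty acids into the matrix. Its signals were 2883, 2641 and 2519 with vehicle, 3576, 3578 and 3302 at 500 mg/kg, 3671, 3613 and 3418 at 1000 mg/kg, and 4595, 3922 and 6816 at 1500 mg/kg. All 9 treated animals lay above the vehicle animals. Slc25a20 rose by 0.89 (SE 0.16, adjusted p = 0.00259) at 1500 mg/kg, or by 0.66 (adjusted p = 0.00062) without PBO 1500 animal 3, while 0.38 and 0.41 at the lower doses did not pass (adjusted p = 0.455 and 0.23). In the DAM study the signals ran from 2057 to 2203 on the basal diet and from 2154 to 2482 at 2000 mg/kg, and the groups overlapped. The change was 0.12 (SE 0.08, adjusted p = 0.401).

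Slc25a17 is a carrier of the peroxisomal membrane that exchanges coenzyme A, FAD and NAD for adenine nucleotides. With vehicle its signals were 1362, 1198 and 1124, against 2207, 1875 and 3816 at PBO 1500. On the basal diet they were 1364, 1425 and 1636, against 1857, 1805 and 2073 at DAM 800 and 2199, 2391 and 2178 at DAM 2000. None of these treated groups overlapped with its control. Slc25a17 rose by 1.03 (SE 0.21, adjusted p = 0.00538) at PBO 1500, or by 0.73 (adjusted p = 0.00254) without PBO 1500 animal 3. It rose by 0.37 (SE 0.09, adjusted p = 0.0397) at DAM 800 and by 0.61 (SE 0.09, adjusted p = 0.000801) at DAM 2000. The calls at the highest doses held in all 16 alternatives each. That at DAM 800 held in 7 of 16. It ended without basal diet animal 1 or 2 or DAM 800 animal 1, 2 or 3 (adjusted p = 0.133, 0.113, 0.0859, 0.0633 and 0.157). The other losses came without a filter, without the intensity trend, with a replicate block and with only both groups' arrays. Slc25a17 was 1 of 2 carriers that rose at both DAM doses, with Slc25a37.

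Slc25a16, linked to coenzyme A in mitochondria, fell at PBO 1500. Its signals were 1669, 1945 and 2022 with vehicle and 1252, 1334 and 1074 at 1500 mg/kg, while the lower doses overlapped with vehicle. The gene fell by 0.62 (SE 0.13, adjusted p = 0.00545), and the call held in all 16 alternatives, with -0.53 (adjusted p = 0.00879) without PBO 1500 animal 3. At DAM 2000 the change of -0.36 did not pass (adjusted p = 0.0922). Slc25a42, the carrier of coenzyme A into the matrix, had 499, 417 and 534 with vehicle and 689, 493 and 1981 at PBO 1500. It overlapped with vehicle, and its change of 0.85 did not pass (adjusted p = 0.143) and was 0.27 without PBO 1500 animal 3. The FAD and folate carrier Slc25a32 and the pyrimidine nucleotide carriers Slc25a33 and Slc25a36 passed in no comparison. The probe sets of Slc25a32 differed in sign, at 0.38 and -0.23 at PBO 1500 and 0.10 and -0.57 at DAM 2000.

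The mitoferrins Slc25a37 and Slc25a28 bring iron into the matrix for haem and iron-sulphur clusters. Each passed under a different compound, except that Slc25a28 also passed at DAM 2000 with median scaling. Slc25a37 had signals of 208, 240.3 and 184 on the basal diet, 304, 339.5 and 294 at DAM 800, and 375, 383 and 386 at DAM 2000. The 3 groups did not overlap with one another. The gene rose by 0.54 (SE 0.13, adjusted p = 0.0362) and by 0.82 (SE 0.13, adjusted p = 0.00122). The higher dose's call held in all 16 alternatives, and that at DAM 800 in 8 of 16. The latter ended without basal diet animal 1 or 3 or DAM 800 animal 1, 2 or 3 (adjusted p = 0.0926, 0.107, 0.0874, 0.129 and 0.0729). The other losses came without a filter, without the intensity trend and with only both groups' arrays. In the PBO study the groups overlapped, with 274, 330.1 and 268 for vehicle and 301, 274 and 613 at 1500 mg/kg. The change there was 0.34 (SE 0.26, adjusted p = 0.405), and -0.01 without PBO 1500 animal 3.

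Slc25a28 had signals of 618, 525 and 354 with vehicle and 1007, 741 and 2849 at PBO 1500, all above the vehicle animals. It rose by 1.38 (SE 0.38, adjusted p = 0.0266), or by 0.81 (adjusted p = 0.0324) without PBO 1500 animal 3. The call ended without vehicle animal 2 or 3 (adjusted p = 0.0591 and 0.107) and with only both groups' arrays, and held in 13 of 16 alternatives. At DAM 2000 the signals were 636, 724 and 665 against 558, 548 and 515. The change of 0.31 did not pass (adjusted p = 0.0692), though it did with median scaling. The difference between the compounds' effects did not pass for Slc25a28 (1.06, adjusted p = 0.189) or for Slc25a37 (-0.48, adjusted p = 0.419) with all arrays kept. It passed for Slc25a37 without PBO 1500 animal 3, and for Slc25a28 without PBO 1500 animal 2.

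Slc25a37 and Slc25a38 are also known from red cell precursors, so red cell markers are set beside them. The 5 erythroid markers summed to 21732 to 23037 with vehicle and 4385 to 10048 at PBO 1500, where 4 of the 4 tested fell. They summed to 13025 to 17699 on the basal diet and 10128 to 21928 at DAM 2000, where none of 4 passed. Alas2, the erythroid enzyme of haem synthesis, fell by 1.59 (SE 0.23, adjusted p = 0.000549) at PBO 1500 and changed by 0.27 (adjusted p = 0.586) at DAM 2000. Epb42, another defining marker, had a median signal of 7.68 and was not tested. In whole liver, fewer cells of a type and less RNA per cell cannot be told apart.

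Markers of other liver cells also moved with PBO 1500, where 8.08% of all probe sets rose and 9.26% fell. At that dose the 7 macrophage markers summed to 2947 to 13437 against 16646 to 18954 with vehicle (3 of 7 fell), the 7 stellate cell markers to 3556 to 8497 against 9596 to 11445 (3 of 7 fell), and the 4 endothelial markers to 6451 to 7529 against 8928 to 9749.8 (1 of 4 fell). The 7 T and NK cell markers summed to 140.0 to 228 against 541 to 747 (2 of the 2 tested fell), and the 4 cholangiocyte markers to 3336 to 4138 against 1035 to 1275. Most of the cholangiocyte sum was Epcam, the 1 of 3 tested that rose, and the median change of the 3 was 0.33. Over all arrays Epcam reached 3803, while Krt19, Krt7 and Cftr reached at most 286, 102 and 128, and Krt7 had a median of 7.46. In the adipocyte list Cidea rose by 4.14 at PBO 1500 and 2.39 at DAM 2000, while Adipoq, Plin1 and Ucp1 had medians of 21.4, 54.2 and 15.1. Of 8 hepatocyte markers, Cps1 fell at PBO 1500. At DAM 2000 Apoa1 rose and Tat fell, as did 1 of 7 macrophage and 3 of 7 stellate markers. Of all probe sets 6.22% rose and 6.11% fell there. The 3 macrophage falls at PBO 1500 became 0 without vehicle animal 1, 1 without vehicle animal 2 and 5 without PBO 1500 animal 1, the 2 T and NK falls 0 and 1 without those vehicle animals, and the 3 stellate falls 1 without vehicle animal 1 or 3. The 3 stellate falls at DAM 2000 became 1 without basal diet animal 2. The part of these cell types in the carrier results was not tested.

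Among the carriers of di- and tricarboxylates, Slc25a21 passed at PBO 1500 alone of the 5 comparisons. It is the oxodicarboxylate carrier, which handles intermediates of lysine and tryptophan breakdown. Its signals were 217, 161 and 243 with vehicle and 145, 11.9 and 43 at PBO 1500, all below the vehicle animals and far apart. The lower PBO doses ran from 191 to 259.6 and overlapped with vehicle. The gene fell by 1.78 (SE 0.46, adjusted p = 0.0187), or by 1.18 (adjusted p = 0.0394) without PBO 1500 animal 2, and its change was -1.72 (adjusted p = 0.0342) without PBO 1500 animal 3. The call ended without vehicle animal 1 or 3 (adjusted p = 0.0596 and 0.0685) and with only both groups' arrays, and held in 12 of 15 alternatives. At DAM 2000 the change was 0.24 (SE 0.23, adjusted p = 0.548). Slc25a1, which exports citrate for fatty acid synthesis, did not pass, with changes of -0.34 (adjusted p = 0.117) at PBO 1500 and -0.27 (adjusted p = 0.0979) at DAM 2000. Nor did the dicarboxylate carrier Slc25a10 or the oxoglutarate-malate carrier Slc25a11, which changed by 0.23 and 0.17 at PBO 1500. A second probe set of Slc25a10 gave -0.47 at PBO 1500 and -0.57 at DAM 2000, against 0.04 for the first at DAM 2000, and neither passed.

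Slc25a30, which resembles the uncoupling proteins, had signals of 1740.0, 732 and 787 on the basal diet and 2269.6, 2522 and 3029 at DAM 2000, all above the controls. DAM 800 overlapped with the controls, at 688, 1133 and 1117. The gene rose by 1.35 (SE 0.28, adjusted p = 0.00705) at 2000 mg/kg, and the call held in all 16 alternatives on this probe set. A second probe set changed by 0.71 there, without passing (adjusted p = 0.0682). In the PBO study the vehicle animals themselves ran from 929 to 2571 and every dose overlapped with them. The changes of -0.40, -1.29 and -0.56 did not pass (adjusted p = 0.873, 0.267 and 0.537). The related Slc25a14 did not pass either, and its change at PBO 1000 was -1.07 (adjusted p = 0.0667).

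Slc25a51l1, which the annotation names as like the mitochondrial NAD carrier Slc25a51, fell in the DAM study. Its signals were 356, 313 and 332 on the basal diet, 237, 227 and 232 at 800 mg/kg, and 119.7, 152 and 159.7 at 2000 mg/kg. The 3 groups did not overlap. The gene fell by 1.14 (SE 0.14, adjusted p = 0.000208) at 2000 mg/kg, in all 16 alternatives, and -0.50 at 800 mg/kg did not pass (adjusted p = 0.0766). With PBO the groups overlapped, at 493, 320.2 and 361 for vehicle and 326, 275 and 339 at 1500 mg/kg, and the change was -0.29 (adjusted p = 0.333). Transcripts of the near-identical Slc25a51 may share this probe set, so the gene behind the signal is uncertain.

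Among the carriers not placed in another role, Slc25a45 had 179, 169 and 48.2 with vehicle and 362, 207 and 829 at PBO 1500. Slc25a48 had 342, 436 and 402 against 233, 244 and 210.4. Neither gene's groups overlapped. Slc25a45 rose by 1.65 (SE 0.48, adjusted p = 0.032), but the call ended without vehicle animal 3 or PBO 1500 animal 1 or 3 (adjusted p = 0.128, 0.0524 and 0.0955). It also ended without the intensity trend, with a replicate block and with only both groups' arrays, and held in 10 of 16 alternatives. Without PBO 1500 animal 3 the change of Slc25a45 was 1.13. Slc25a48 fell by 0.74 (SE 0.21, adjusted p = 0.0278). That call ended without vehicle animal 2 or 3 or PBO 1500 animal 3 (adjusted p = 0.0957, 0.0816 and 0.0547) and with median scaling (adjusted p = 0.0655), and a second probe set gave -0.22. The change of Slc25a48 was -0.68 without PBO 1500 animal 3. Slc25a35 passed in none. Slc25a46, which acts at the outer membrane, passed in none by its brighter probe set (-0.13 at DAM 2000, adjusted p = 0.366), while a second probe set fell by 0.40 there (adjusted p = 0.0479). Slc25a34 and Slc25a53 had median signals of 18 and 31.9 and were not tested.

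**Figure D3:**
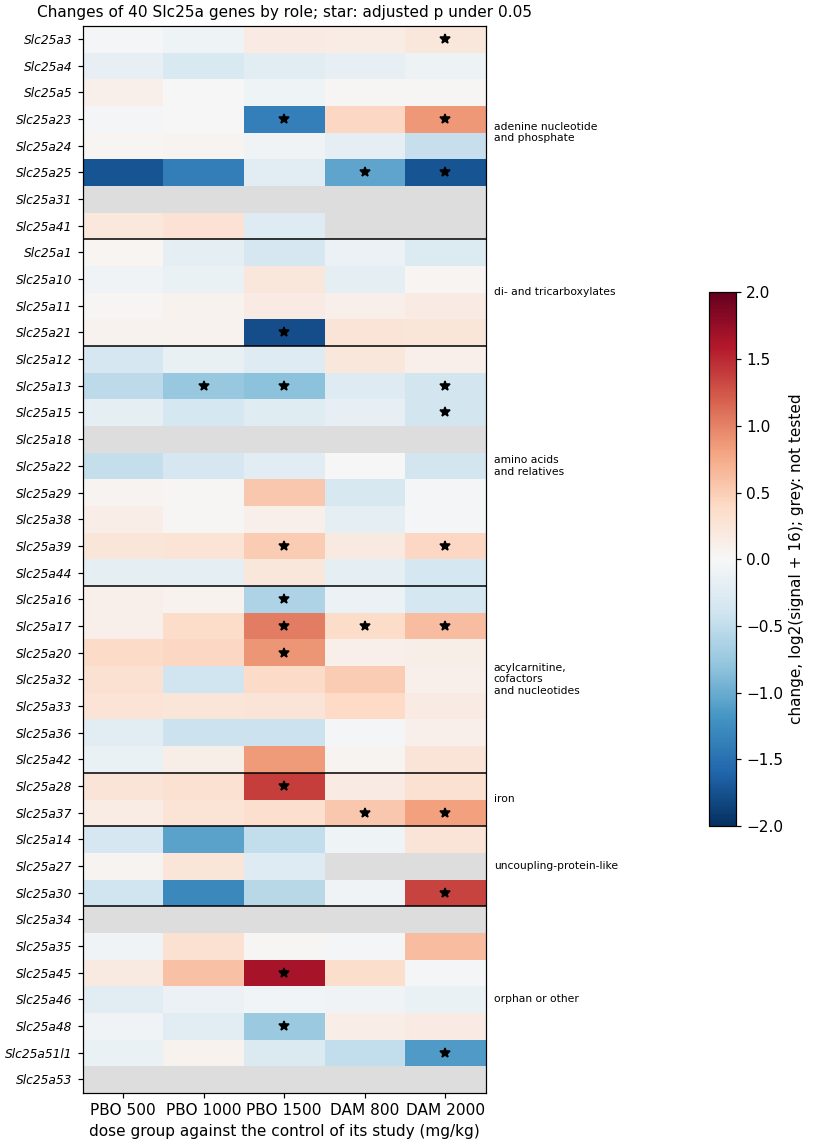
Change in log2(signal + 16) of the 40 Slc25a genes (rows, grouped by role) in the 5 dose comparisons (columns), red for higher and blue for lower than the control, grey where a gene was too dim to be tested; stars mark an adjusted p under 0.05. Stars fall on 16 genes and every role has at least 1, with Slc25a17 starred in 3 columns and Slc25a13 in 3.

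Across the 4 PBO groups, a linear trend over dose passed for 8 carriers (22.2%, against 16.8% of all probe sets), 5 upward and 3 downward, against 7.92% and 8.84% of all. With a 60th percentile filter 8 of 31 passed, against 25% of all. The count became 5 without vehicle animal 2 or PBO 1500 animal 1, and 4 without vehicle animal 3. Per 500 mg/kg, Slc25a17 rose by 0.33, Slc25a20 by 0.27 and Slc25a39 by 0.16, and Slc25a13 fell by 0.27 (adjusted p = 0.00531, 0.0031, 0.00334 and 0.000626). These 4 trends held in all 21 alternatives, each run on the brightest probe set. The trends of Slc25a28 (0.42), Slc25a45 (0.53), Slc25a16 (-0.19) and Slc25a48 (-0.24) did not, and held in 14, 17, 7 and 14 of the 21, in that order. Slc25a28 lost its trend without vehicle animal 2 or 3, PBO 500 animal 1 or 2, or PBO 1500 animal 1 (adjusted p up to 0.103), and its trend was 0.23 without PBO 1500 animal 3. Slc25a45 lost it without vehicle animal 3 or PBO 1500 animal 1 or 3 (up to 0.0915). Slc25a16 lost it without vehicle animal 2 or 3 or any 1 PBO 500 or PBO 1500 animal (up to 0.124), and Slc25a48 without vehicle animal 2 or 3 or any 1 PBO 1500 animal (up to 0.0624).

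Both highest doses changed 10 carriers, and 4 were the same genes, or 40% of each set. Over all probe sets 1040 passed at both doses, or 32.2% of those at PBO 1500 and 45.3% of those at DAM 2000, and 1015 of them moved in the same direction. Slc25a13 fell and Slc25a17 and Slc25a39 rose in both, and Slc25a23 fell with PBO and rose with DAM. The remaining 6 at PBO 1500 were Slc25a20, Slc25a28 and Slc25a45, which rose, and Slc25a16, Slc25a21 and Slc25a48, which fell. At DAM 2000 they were Slc25a3, Slc25a30 and Slc25a37, which rose, and Slc25a15, Slc25a25 and Slc25a51l1, which fell. These lists depended on the setting. At PBO 1500 Slc25a15 also fell without PBO 1500 animal 3 and with array weights, and Slc25a3 rose with quantile normalization. At DAM 2000 Slc25a28 also rose with median scaling, and Slc25a16 fell with a replicate block and without basal diet animal 2. The PBO 1500 and DAM 2000 comparisons share no animals. In all, 16 of the 36 carriers tested in at least 1 study passed in at least 1 of the 5 comparisons, or 44.4%. Of all probe sets tested, dimmer ones included, 22.8% did. Of the other carriers, 20 passed in none and 4 were not tested in either study.

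The effect of PBO 1500 minus that of DAM 2000, tested over the 21 arrays, passed for 4 carriers (11.1%, against 4.91% of all probe sets), 2 above 0 and 2 below, against 2.14% and 2.77% of all. With a 60th percentile filter 5 of 32 passed, against 8.27% of all. Slc25a23 differed by -2.24 (SE 0.51, adjusted p = 0.0148), in all 21 alternatives on its brightest probe set, and by -1.49 without PBO 1500 animal 3. Slc25a20 differed by 0.77 (SE 0.19, adjusted p = 0.0258), Slc25a51l1 by 0.85 (SE 0.24, adjusted p = 0.0444) and Slc25a21 by -2.02 (SE 0.57, adjusted p = 0.0453). For Slc25a20 the call ended without vehicle animal 2 or 3, basal diet animal 2 or 3, or DAM 2000 animal 1 or 3 (adjusted p = 0.0523 to 0.0759). For Slc25a51l1 and Slc25a21 it ended without each of 10 of the 12 arrays of these groups (adjusted p up to 0.126 and 0.112). The exceptions were vehicle animal 1 and PBO 1500 animal 2 for Slc25a51l1, and PBO 1500 animal 1 and basal diet animal 1 for Slc25a21. With all arrays kept, Slc25a20 lost its call with median scaling and without the trend. Slc25a51l1 lost it with pseudocount 64, no filter, quantile normalization, median scaling, a replicate block and array weights. Slc25a21 lost it with pseudocount 1, no filter, no trend, a replicate block and array weights. Their calls held in 13, 5 and 6 of the 21 alternatives, in that order. The count of carriers became 1 without vehicle animal 2 or 3, basal diet animal 2 or 3, or DAM 2000 animal 1 or 3. Dose, length of dosing and strain differ between both sides of this comparison, and the compound cannot be told apart from them.

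**Figure D4:**
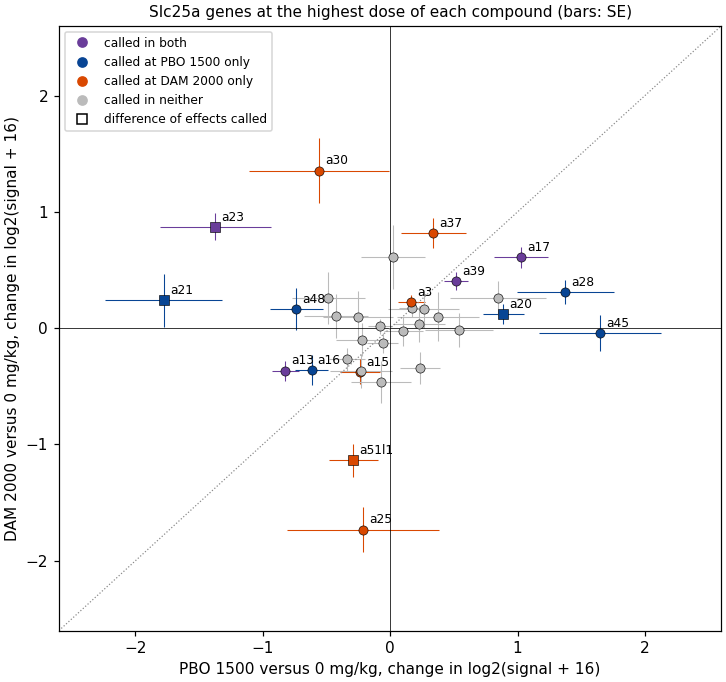
Change at PBO 1500 (horizontal) against change at DAM 2000 (vertical) for the carriers tested in both studies, in log2(signal + 16), with standard errors as bars, colour for the comparison in which a gene passed and squares where the difference of effects passed. Slc25a13, Slc25a17 and Slc25a39 lie on the same side of 0 on both axes, and Slc25a23 lies at -1.37 and 0.87.

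Enzymes that work with these carriers were counted from lists. Of all probe sets tested, 8.08% rose and 9.26% fell at PBO 1500, and 6.22% rose and 6.11% fell at DAM 2000. The counts of each list below stand against these shares. Fatty acid oxidation in mitochondria uses the acylcarnitine brought in by Slc25a20. Of 17 tested genes in the fatty acid oxidation list, which also holds the carnitine transporter Slc22a5, 13 rose and none fell at PBO 1500. Their median change was 0.70 against -0.08 for all probe sets. Ech1 rose by 1.75, Eci1 by 1.76, Hadhb by 1.05 and Decr1 by 0.87 (adjusted p = 1.52e-05, 9.12e-05, 1.79e-05 and 0.000132). Without PBO 1500 animal 3, 12 rose and 1 fell, with a median of 0.52. At DAM 2000 4 of 17 rose, with a median of 0.19 against -0.04, and Decr1, Slc22a5, Acaa2 and Cpt2 rose by 0.60, 0.65, 0.40 and 0.34. The count was 2 without basal diet animal 3 or DAM 2000 animal 1 or 2.

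In the urea cycle and ornithine list, which needs Slc25a15 and Slc25a13, 4 of 9 tested genes fell and none rose at PBO 1500, with a median of -0.56, or -0.28 without PBO 1500 animal 3 with 4 still passing. Cps1 fell by 0.78, Gls2 by 0.84, Ass1 by 0.56 and Oat by 2.22 (adjusted p = 0.000751, 0.000752, 0.00833 and 0.0185). At DAM 2000 Glud1 fell by 0.22 and Otc by 0.32 (adjusted p = 0.0345 and 0.0406), with a median of -0.22. Neither of these 2 DAM calls held with median scaling or without basal diet animal 2 or 3 or DAM 2000 animal 2 or 3 (0 of 9). In the malate-aspartate and glycerol phosphate shuttle list Got2 fell by 0.59 and Mdh1 by 0.43 at PBO 1500, 2 of 6, with 1 of 6 under median scaling and without PBO 1500 animal 1 or any 1 vehicle animal. Mdh2 rose by 0.26 at DAM 2000, the 1 gene of 6, and 0 rose without basal diet animal 1 or 3 or any 1 DAM 2000 animal.

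For citrate use and fatty acid synthesis, which draws on citrate exported by Slc25a1, 2 of 9 rose and 1 fell at PBO 1500, namely Me1 (2.36), Aco1 (1.61) and Acly (-0.97), and 0 fell without any 1 vehicle animal. At DAM 2000 Fasn fell by 1.49, Acly by 1.19 and Acaca by 1.16, and Me1 rose by 0.68, of 8 tested, with 2 higher and 3 lower under median scaling. In the coenzyme A and NAD list 5 of 12 rose and 2 fell at PBO 1500, led by Ppcdc (1.60) and Ppcs (1.49), which make coenzyme A, with Nmnat3 at -1.32. Without vehicle animal 1 or 2 or PBO 1500 animal 1 there 3 rose, and 1 fell without any 1 vehicle animal or PBO 1500 animal 2 or 3. At DAM 2000 Ppcdc rose by 0.91 and Nampt by 0.87 while Nmnat3 fell by 0.62 and Nnt by 0.35. With median scaling 5 rose and 1 fell at PBO 1500, and 4 rose and 1 fell at DAM 2000. In the haem and iron list Alas1, the liver enzyme of haem synthesis, rose by 1.88 and Iscu by 0.36 at PBO 1500, where Alas2 fell, of 10 tested. At DAM 2000 Iscu rose by 0.38 and Fech by 0.22. The 2 rises in this list became 1 without any 1 vehicle animal or PBO 1500 animal 2, and at DAM 2000 without basal diet animal 1 or 3 or any 1 DAM 2000 animal.

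In the list for import of carriers, 5 of 15 rose and 1 fell at PBO 1500, led by Timm10b (1.38), Tomm20 (1.24) and Tomm5 (1.03), and 4 rose at DAM 2000, led by Timm10b (0.51) and Tomm70 (0.43), a receptor for carrier precursors. The 4 became 6 with median scaling and 2 without basal diet animal 1 or DAM 2000 animal 2, and the 1 fall became 0 with median scaling and without any 1 vehicle animal or PBO 1500 animal 1 or 2. For pyruvate entry, 1 of 10 rose (Pdhx, 0.78) and 4 fell at PBO 1500, among them Pc (-1.06), Mpc1 (-0.68) and Pdk1 (-0.68), and Pdk1 fell by 0.88 at DAM 2000. The list's median at PBO 1500 was 0.18, and -0.11 without PBO 1500 animal 3. The 4 falls became 1 without vehicle animal 3, 2 genes rose without PBO 1500 animal 2, and 2 fell at DAM 2000 without basal diet animal 1 or DAM 2000 animal 1. In the folate list Mthfd1 rose by 0.54 and Aldh1l2 fell by 1.11 at PBO 1500, of 7, and Aldh1l1 and Shmt1 rose by 0.50 and 0.44 while Aldh1l2 fell by 0.31 at DAM 2000, of 8. The rise at PBO 1500 ended without any 1 vehicle animal or PBO 1500 animal 3, 1 of the 2 DAM rises without DAM 2000 animal 2, and the DAM fall with median scaling, without any 1 basal diet animal and without DAM 2000 animal 1 or 3. Of 11 biogenesis regulators, Tfb2m rose by 0.56 at PBO 1500, and Polg, Tfb2m and Ppargc1a rose by 0.57, 0.30 and 1.09 at DAM 2000. These counts became 3 without PBO 1500 animal 2, and 1 without basal diet animal 1 or DAM 2000 animal 2 or 3. Among 4 tested relatives of the carriers under other names, Ucp3 rose by 1.17 at DAM 2000 and none passed at PBO 1500.

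Of 75 tested genes in the list for the respiratory chain and ATP synthase, 4 rose and 10 fell at PBO 1500, against 8.08% and 9.26% of all probe sets. Their median was -0.09, close to the -0.08 of all probe sets. Scaled to a common median, 6 rose and none fell. Atp5if1, the inhibitor of the ATP synthase, rose by 1.71 (adjusted p = 3.76e-05). At DAM 2000 8 rose and none fell, with a median of 0.15 against -0.04, led by Atp5if1 (0.74) and Cox4i1 (0.33). That count was 13 with median scaling, 3 without basal diet animal 1 or 3, 4 without DAM 2000 animal 1 or 2, and 14 without DAM 2000 animal 3. At PBO 1500 the 10 falls became 4 without vehicle animal 2 and 5 without vehicle animal 3, and the 4 rises became 2 without any 1 vehicle animal.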

How the data were processed

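Total RNA of each liver was labelled with biotin by in vitro transcription and hybridised to an Affymetrix rat array. The authors deposited 1 table of linear signal intensities. The submitters' processing notes name MAS5, with its version not given. Arrays limit the precision by their number, 3 a group. Symbols came from the platform annotation: 20826 probe sets had 1 symbol, 436 several and 9780 none, and 57 controls were left out. No scan date was used.

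Signals were taken as log2(signal + 16) without further normalization. Probe sets above the 40th percentile of mean signal in a study were fitted with limma 3.58.1 (R 4.3.3; lmFit, eBayes with an intensity trend), each study with all its arrays. P-values were adjusted by Benjamini-Hochberg over all 18625 tested. The brightest probe set stands for a gene. Other probe sets are given where their calls differ at the highest doses, and for some genes where only the sign differs. The carriers, lists and tests were chosen with earlier results of these data known. Signals by animal are given for the 12 carriers with the smallest adjusted p, for those whose difference of effects passed, and for others that passed. From each list up to 4 genes past the threshold with the smallest adjusted p were named; Slc25a22, Slc25a42 and the marker genes were named after their values were seen. The alternatives were other pseudocounts (1 and 64), filters, scalings, array weights, eBayes without trend, fewer arrays and the next probe set.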

Additional observations from a re-analysis of the deposited data

Results flagged for a closer look

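The difference between the effects of PBO 1500 and DAM 2000, tested directly in limma, passed for 4 carriers, and each is listed here for that reason. Slc25a23 differed by -2.244 in log2(signal + 16), falling in 3 of 3 PBO animals and rising in 3 of 3 DAM animals relative to their controls. Slc25a20 differed by 0.769, Slc25a51l1 by 0.848 and Slc25a21 by -2.017. Their calls held in 13, 5 and 6 of 21 alternatives, in that order. No explanation of these differences was tested.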

How the results depend on the processing

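Of the calls on single genes, those for Slc25a13 at PBO 1000 and 1500, Slc25a16, Slc25a17, Slc25a20 and Slc25a39 at PBO 1500, and Slc25a17, Slc25a23, Slc25a25, Slc25a30, Slc25a37, Slc25a39 and Slc25a51l1 at DAM 2000 held under every alternative run on the same probe set, where no called change turned its sign. With the next probe set of genes that have several, the count was 7 at PBO 1500 (against 10), 7 at DAM 2000 (against 10), 1 at PBO 1000 and 3 at DAM 800. There Slc25a23, Slc25a39 and Slc25a48 did not pass at PBO 1500, and Slc25a15, Slc25a23, Slc25a30 and Slc25a39 (-0.49) did not pass at DAM 2000, where Slc25a46 did. The count of carriers that passed at PBO 500 was 1 with a 60th percentile filter, quantile normalization or only both groups' arrays, and 2 with array weights, against 0. At PBO 1000 it was 4 with array weights and with only both groups' arrays, against 1. At PBO 1500 it was 6 with only both groups' arrays, against 10. At DAM 800 it was 1 without a filter and with only both groups' arrays, and 0 without the intensity trend, against 3. The difference of effects passed for 2 carriers without a filter, with median scaling and without the trend, against 4. The cause was not tested. With 1 array left out, counts ran from 0 to 2 at PBO 500, 1 to 5 at PBO 1000, 5 to 11 at PBO 1500, 1 to 2 at DAM 800, 7 to 10 at DAM 2000, 4 to 9 for the trend and 1 to 6 for the difference. No deviation shared by same-numbered animals was seen (correlations of -0.08 to 0.03 between same-numbered PBO arrays and -0.06 to 0.11 between DAM arrays). This cannot show whether the animals were paired, which the labels do not say. With the replicate block the counts were 0, 1, 8, 2, 9, 6 and 2 in that order. Carriers below the filter have no test here.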
